A study of Saccharomyces cerevisiae with 4 samples.

Results

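The translation elongation factor genes of Saccharomyces cerevisiae examined here are YEF3, HEF3, TEF1, TEF2, EFT1, EFT2, EFB1, HYP2 and CAM1. They were taken from the array table by the ORF name with which each probe name begins, which found 1 probe for each of the 9 genes among 6210 probes. Every one of the 9 had a value on all 4 arrays and entered the test, so none was lost to a filter. The 5A mutant carries an RNA polymerase II whose C-terminal domain (CTD) has runs of alanine inserted between diheptads, the pairs of heptapeptide repeats that form its functional unit. The control cells carry the WT CTD. By the study's own description both CTD sequences were brought in by the plasmid shuffle, which for the mutant puts a plasmid copy of the RNAP II gene, linked to LEU2, in place of one linked to URA3. Both strains derive from strain Z26 and were grown to log phase in YPD, a rich glucose medium. The sources used here do not say whether the replicates of a strain were separate cultures or separate clones, so the p-values measure only the spread between these arrays, which may be technical.

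Each array was hybridized with cDNA of the 5A mutant labelled with Cy5 and cDNA of the control labelled with Cy3. No array had the dyes swapped, so dye bias and expression cannot be told apart for any single probe. Values are log2 ratios of the 5A mutant over the control, so 1 stands for a 2-fold higher level in the 5A mutant and -1 for a 2-fold lower one. The median over all probes lay between -0.01 and -0.0034 on the 4 arrays. Array 2 stood apart from the others, with Pearson's r across probes between 0.666 and 0.691 against the other arrays and a smaller spread (SD 0.735, against 0.858 to 0.973). With 4 arrays, precision is limited. RPO21, the gene that carries the CTD, was at -5.67 ± 0.75 and URA3, the marker of the replaced plasmid, at -4.80 ± 0.38 (SD, n = 4). URA3 was thus far lower in the 5A mutant than in the control on every array, and whether the control cells still held the URA3 plasmid is not known here. Where the RPO21 probe lies relative to the CTD is not known here, so its value does not check the mutation itself.

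Elongation factors carry the ribosome along the mRNA once translation has begun. In yeast, eEF1A delivers aminoacyl-tRNA to the ribosome as a complex with GTP, and eEF1B exchanges its GDP for GTP. The factor eEF2 moves the ribosome on by a codon, eIF5A helps it to join prolines and other slow residues, and eEF3, an ATPase that fungi need for elongation, releases spent tRNA. Several of these factors are encoded by a pair of nearly identical genes, and their mRNAs are among the most abundant of growing yeast, as are those of ribosomal proteins.

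The elongation factor genes did not move as one group in the 5A mutant. Both genes for eEF3, YEF3 and HEF3, fell to less than 50% of the control level, while TEF1, for eEF1A, and HYP2, for eIF5A, rose to about 2-fold. The limma fit over 6157 probes with Benjamini-Hochberg (BH) adjustment called 4 of the 9 at an adjusted p under 0.05, 2 higher and 2 lower, and did not call TEF2, EFT1, EFT2, EFB1 and CAM1. Over all probes tested, 40.5% were called, 19.8% higher and 20.7% lower, so the share of called genes among the 9, 44.4%, was near that of the whole table. Of the 9 genes, 7 had a mean above 0, and their median was 0.23, against -0.0054 over all probes tested. A mean of at least 1 was reached by 1 gene, TEF1, and a mean of at most -1 by 2, YEF3 and HEF3, where the shares over all probes were 5.75% and 8.66%. TEF2, EFB1 and HYP2 were above 0 on all 4 arrays, as were 26.8% of the probes with 4 values. Without array 2 the fit called 6 of the 9, 4 of them higher. Over the 6087 probes tested without array 2 it called 3120 (51.3%), 1532 higher and 1588 lower. Without array 1, 3 or 4 it called YEF3 and HEF3 only (23.5%, 24.5% and 24.3% of all probes). No gene was then called higher, with 3, 2 and 2 higher at an unadjusted p under 0.05 in limma. A plain one-sample test, without limma's shared estimate of the spread, called 0 of the 9 and 14.8% of all probes, and 3 of the 9 had an unadjusted p under 0.05 in it.

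**Figure D1:**
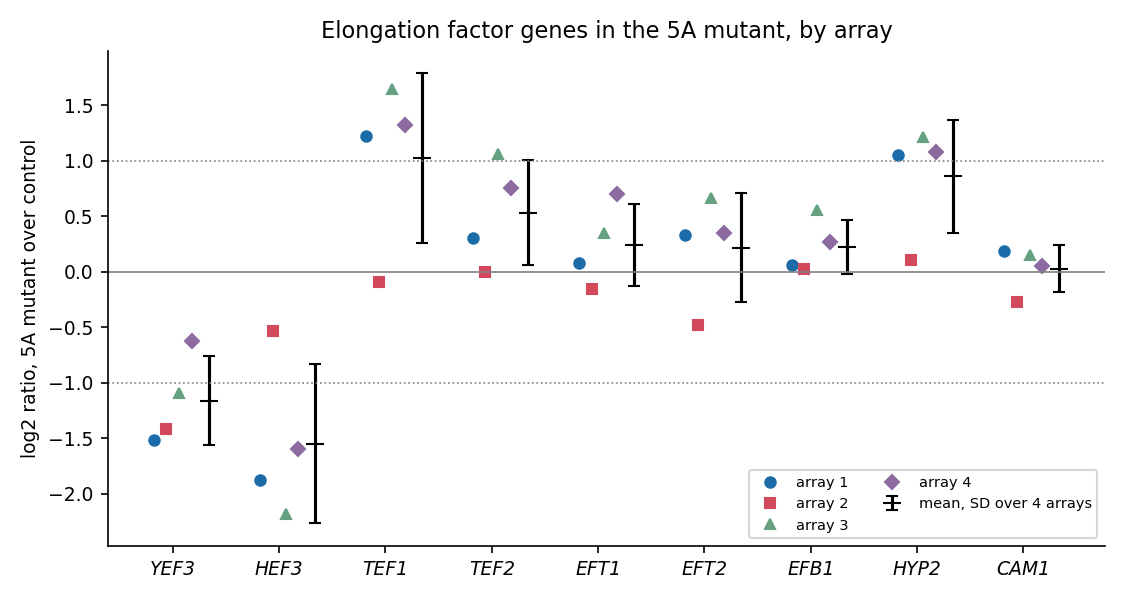
Log2 ratio of the 5A mutant over the control (y axis) for the 9 elongation factor genes (x axis), with 1 symbol per array and the mean with its SD over 4 arrays in black; dotted lines mark 2-fold. YEF3 and HEF3 lie below 0 on every array, and array 2 gives the lowest value of each of the other 7 genes.

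YEF3 (YLR249W, chromosome XII) encodes the eEF3 of growing cells and is essential. Its log2 ratio was -1.51, -1.41, -1.09 and -0.62 on arrays 1 to 4. All 4 arrays thus gave a lower level in the 5A mutant, and array 4 gave the smallest change. The mean of -1.16 ± 0.40 (SD, n = 4, limma BH-adjusted p = 0.00308) is a level 0.448 times that of the control, with a 95% interval of the log2 ratio from -1.57 to -0.74. Of all probes tested, 6.46% had a lower mean. YEF3 stayed called whichever array was left out (limma BH-adjusted p between 0.00451 and 0.0206).

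HEF3 (YNL014W, chromosome XIV) is a second eEF3 gene, little used in vegetative cells and known to be induced when zinc is short. Its log2 ratio was -1.88, -0.53, -2.18 and -1.59 on arrays 1 to 4, so that array 2 gave a far smaller decrease than the other arrays. The mean was -1.55 ± 0.72 (SD, n = 4, limma BH-adjusted p = 0.00447), or 0.342 times the control level. Without array 2 the mean was -1.88, and whichever array was left out the gene stayed called (limma BH-adjusted p between 0.000357 and 0.0277). Of all probes, 28.1% of those with 4 values were below 0 on every array, as were YEF3 and HEF3. Spot intensities were not analysed here, so how far the HEF3 probe stood above background is unknown. The probe sequences were not used either, so how far a probe also reads the sister copy of its gene is unknown for YEF3 and HEF3 and for the other pairs.

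On the 4 arrays the ratio of YEF3 minus that of HEF3 was 0.37, -0.88, 1.09 and 0.97, with a mean of 0.39 ± 0.90 (SD). The exact sign-flip permutation test over the 4 arrays, two-sided, gave p = 0.375, which is 6 of 16 sign patterns with a mean at least as large, and 0.469 after Benjamini-Hochberg adjustment over the 5 pairs of related genes compared. With 4 arrays this test cannot go below 2 of 16 patterns, so it cannot reach a p under 0.05. A difference in the size of the decrease between the 2 eEF3 genes was therefore not shown.

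TEF1 (YPR080W, chromosome XVI) and TEF2 (YBR118W, chromosome II) both encode eEF1A, with the same protein sequence. TEF1 was at 1.22, -0.087, 1.65 and 1.32 on arrays 1 to 4. It was thus more than 2-fold higher on 3 arrays and near 0 on array 2. Its mean was 1.02 ± 0.76 (SD, n = 4, limma BH-adjusted p = 0.0240), or 2.03 times the control level. The call depended on which arrays were kept: without array 2 the mean was 1.40 (limma BH-adjusted p = 0.000672), and without array 1, 3 or 4 it was not called (limma BH-adjusted p = 0.0934, 0.0954 and 0.0885).

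TEF2 was at 0.31, 0.0015, 1.07 and 0.76 on arrays 1 to 4, all above 0 but on array 2 by almost nothing. The mean of 0.53 ± 0.47 (SD, n = 4) was not called (limma BH-adjusted p = 0.0642). Without array 2 it was 0.71 and was called (limma BH-adjusted p = 0.0148). TEF1 exceeded TEF2 on 3 of 4 arrays, by 0.91, 0.58 and 0.56 on arrays 1, 3 and 4, and differed from it by -0.089 on array 2. The mean difference was 0.49 ± 0.42 (SD), with p = 0.25 by the exact two-sided permutation test over 4 arrays (adjusted 0.417), and the 2 genes were not shown to differ.

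The nucleotide exchange factor eEF1B is built from an alpha subunit, encoded by EFB1 (YAL003W, chromosome I), which catalyses the exchange, and a gamma subunit, encoded by CAM1 (YPL048W, chromosome XVI) and its relative TEF4. EFB1 was at 0.061, 0.025, 0.55 and 0.27 on arrays 1 to 4. All 4 values were above 0, and the mean of 0.23 ± 0.24 (SD, n = 4) was not called (limma BH-adjusted p = 0.239). CAM1 lay closest to 0 of all 9 genes, at 0.19, -0.28, 0.15 and 0.057, with a mean of 0.029 ± 0.21 (SD, n = 4, limma BH-adjusted p = 0.875). Its 95% interval ran from -0.30 to 0.35.

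TEF4 (YKL081W), the other gamma subunit gene, was not among the 9. It was higher on every array, at 1.18, 1.08, 1.81 and 1.37, with a mean of 1.36 ± 0.32 (SD, n = 4, limma BH-adjusted p = 0.00134). The median over chromosome XI, where TEF4 lies, was 0.89, and its mean exceeded that median by 0.47. It was not called once each chromosome was centred on its own median (limma BH-adjusted p = 0.0555). CAM1 was lower than TEF4 on all 4 arrays, with differences between -1.66 and -0.99 and a mean of -1.33 ± 0.28 (SD). In the exact two-sided permutation test over 4 arrays, 2 of 16 sign patterns gave a mean at least as large, the fewest possible, and the adjusted p over the 5 pairs was 0.313. None of the 9 elongation factor genes lies on chromosome XI, and the medians of their own chromosomes were between -0.12 and 0.018.

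EFT1 (YOR133W, chromosome XV) and EFT2 (YDR385W, chromosome IV) encode the same eEF2 protein, the GTPase that drives translocation and carries the modified histidine diphthamide. EFT1 was at 0.084, -0.16, 0.35 and 0.70 on arrays 1 to 4, and EFT2 at 0.34, -0.48, 0.66 and 0.35. Both were above 0 on 3 arrays and below 0 on array 2. The means of 0.24 ± 0.37 for EFT1 (SD, n = 4, limma BH-adjusted p = 0.282) and 0.22 ± 0.49 for EFT2 (SD, n = 4, limma BH-adjusted p = 0.410) were not called. Their 95% intervals ended at 0.64 and 0.69, short of a 2-fold increase. Without array 2, EFT2 was at 0.45 and was called (limma BH-adjusted p = 0.0302), and EFT1 at 0.38 was not (limma BH-adjusted p = 0.0848). The difference of EFT1 minus EFT2 was above 0 on 2 arrays and below 0 on the other 2, with a mean of 0.026 ± 0.36 (SD) and p = 0.75 by the exact two-sided permutation test over 4 arrays.

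**Figure D2:**
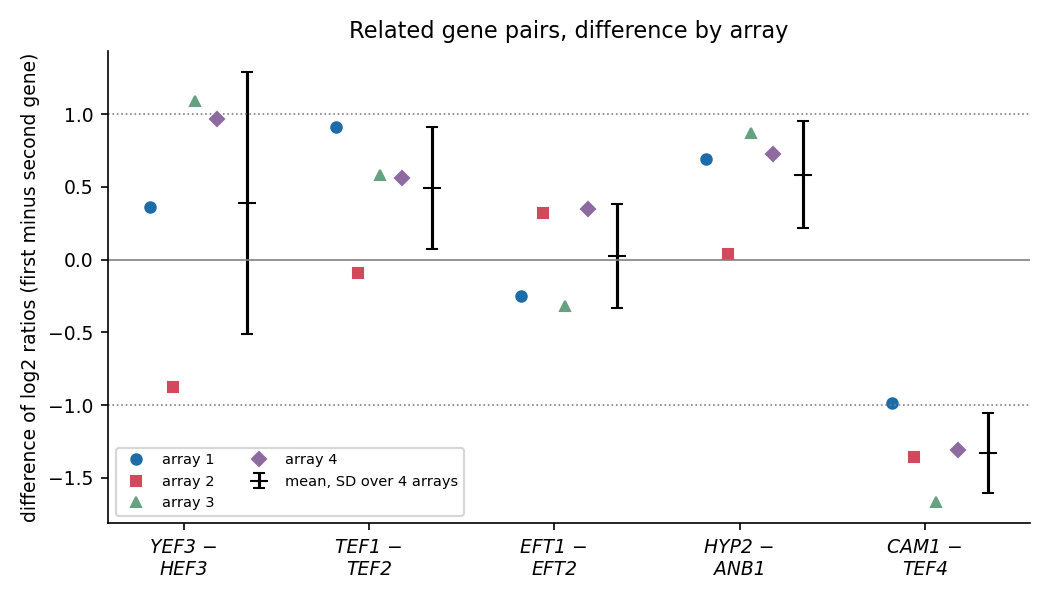
Difference of log2 ratios on each array (y axis, the first named gene minus the second) for 5 pairs of related genes (x axis), with 1 symbol per array and the mean with its SD over 4 arrays in black; dotted lines mark 1 and -1. The pairs HYP2 and ANB1, and CAM1 and TEF4, differ the same way on all 4 arrays, and EFT1 and EFT2 scatter around 0.

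HYP2 (YEL034W, chromosome V) encodes the main eIF5A of cells grown with oxygen, a small protein that is active only after one of its lysines has been turned into hypusine. HYP2 was at 1.05, 0.10, 1.21 and 1.08 on arrays 1 to 4. It was about 2-fold higher in the 5A mutant on arrays 1, 3 and 4, and array 2 was far from them. The mean was 0.86 ± 0.51 (SD, n = 4, limma BH-adjusted p = 0.0153), or 1.82 times the control level, and 1.11 without array 2 (limma BH-adjusted p = 0.000892). Without array 1, 3 or 4 the gene was not called (limma BH-adjusted p between 0.0657 and 0.0709). Its relative ANB1 (YJR047C), the eIF5A gene used when oxygen is low, was at 0.36, 0.062, 0.34 and 0.35, with a mean of 0.28 ± 0.14 (SD, n = 4, limma BH-adjusted p = 0.12), and was not called. HYP2 exceeded ANB1 on all 4 arrays, by 0.58 ± 0.37 on average (SD). In the exact two-sided permutation test over 4 arrays, 2 of 16 sign patterns gave a mean at least as large, the fewest possible, and the adjusted p was 0.313.

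Hypusine is made in 2 steps. Deoxyhypusine synthase, encoded by DYS1, transfers part of spermidine to the lysine of eIF5A, and deoxyhypusine hydroxylase, encoded by LIA1, completes it. LIA1 (YJR070C, chromosome X) was the lowest gene of all the translation lists, at -3.81, -3.37, -2.45 and -4.97 on arrays 1 to 4. Every array gave a level far under that of the control, and the mean was -3.65 ± 1.04 (SD, n = 4, limma BH-adjusted p = 0.00077), or 0.0797 times the control level. Only 0.114% of all probes tested had a lower mean. Of its 6 nearest probes in the order of the gene table, 2 had values on all 4 arrays and 4 had enough values to be tested. Of these 4, 2 rested on only 2 arrays each. The means of the 4 lay between -0.15 and 0.66 and so did not share the low ratio of LIA1. DYS1 (YHR068W), chosen after its values were seen because it acts in the same pathway, was at -0.37, -0.97, 0.59 and 0.059, with a mean of -0.17 ± 0.66 (SD, n = 4, limma BH-adjusted p = 0.600), and was not called.

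**Figure D3:**
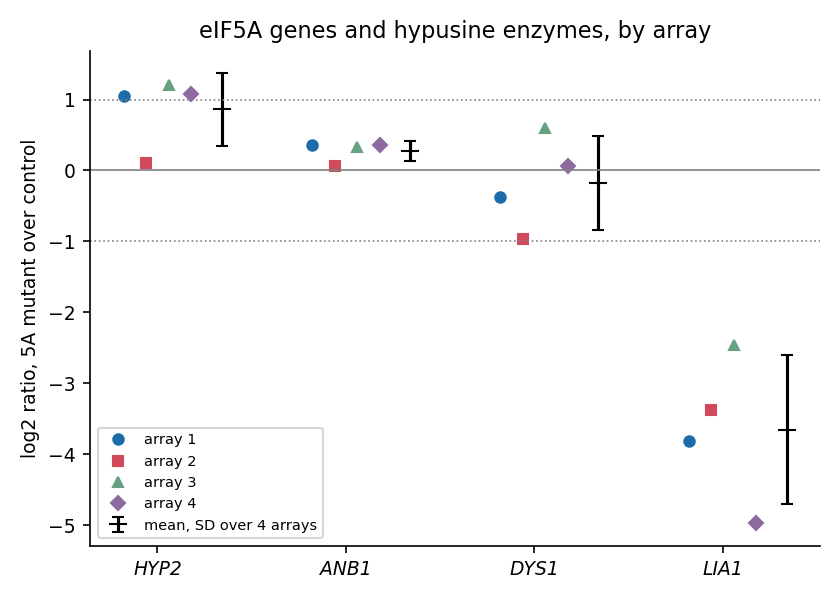
Log2 ratio of the 5A mutant over the control (y axis) for the eIF5A genes HYP2 and ANB1 and the hypusine enzyme genes DYS1 and LIA1 (x axis), with 1 symbol per array and the mean with its SD over 4 arrays in black; dotted lines mark 2-fold. LIA1 lies between -4.97 and -2.45 on the 4 arrays, below all values of the other 3 genes.

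The other genes for enzymes that modify elongation factors changed less than LIA1. Of 17 modification genes listed, LIA1 and DYS1 included, 16 had a probe. Limma called 3 higher and 3 lower, LIA1 among the lower, or 37.5% of them, against 40.5% of all probes. The list had a median of 0.021. DPH6 (YLR143W), which acts in the last step of diphthamide synthesis on eEF2, fell on every array, with values of -1.14, -0.91, -1.73 and -1.13. It averaged -1.23 ± 0.35 (SD, n = 4, limma BH-adjusted p = 0.00203). DPH1 (YIL103W), which acts in the first step of diphthamide synthesis, was higher at 0.60 ± 0.37 (SD, n = 4, limma BH-adjusted p = 0.0288), from 0.15 to 0.92 on the arrays. It was not called without array 1, 3 or 4 (limma BH-adjusted p between 0.0749 and 0.127). The diphthamide genes thus gave values in both directions.

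The relatives of eEF2 and eEF3 with other tasks stayed near 0. RIA1 (YNL163C), an eEF2-like GTPase that acts in the maturation of the large ribosomal subunit, was at -0.13 ± 0.19 (SD, n = 4, limma BH-adjusted p = 0.456). NEW1 (YPL226W), an ATPase related to eEF3, was at -0.0078 ± 0.32 (SD, n = 4, limma BH-adjusted p = 0.973), with a 95% interval from -0.38 to 0.37. The low ratios of YEF3 and HEF3 were therefore not seen for NEW1, although the difference between NEW1 and these genes was not itself tested.

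Of the 26 initiation factor genes, limma called 5 higher and 4 lower, or 34.6%, against 40.5% of all probes, with a median of -0.043. The means of the 4 called lower lay between -0.72 and -0.37. SUI1 (YNL244C), encoding eIF1, which guards the choice of the start codon, rose most, at 1.47, 1.07, 1.70 and 1.18 on arrays 1 to 4, averaging 1.35 ± 0.29 (SD, n = 4, limma BH-adjusted p = 0.00114). TIF1 (YKR059W), encoding the helicase eIF4A, was at 0.91 ± 0.39 (SD, n = 4, limma BH-adjusted p = 0.00691), and GCN3 (YKR026C), a regulatory subunit of eIF2B, at 0.91 ± 0.34 (SD, n = 4, limma BH-adjusted p = 0.00545). Both TIF1 and GCN3 lie on chromosome XI, and exceeded its median by 0.021 and 0.022. With chromosomes centred on their medians neither was called (limma BH-adjusted p = 0.930 and 0.920). In that setting 7 of the 26 genes were called, or 26.9%, against 36.9% of all probes. TIF2 (YJL138C), on chromosome X, encodes the same eIF4A protein as TIF1 and was named after its values were seen. It was higher as well, at 0.86 ± 0.40 (SD, n = 4, limma BH-adjusted p = 0.00939). Without array 2 the fit called 12 initiation genes higher and 3 lower, or 57.7%, against 51.3% of all probes in that fit.

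Among 10 genes of termination, recycling and ribosome rescue, limma called 2 higher and 1 lower, or 30.0%, against 40.5% of all probes, with a median of 0.015. With chromosomes centred on their medians, 1 of the 10 was called, against 36.9% of all probes. HBS1 (YKR084C), a relative of eEF1A that rescues stalled ribosomes together with Dom34, was at 0.87 ± 0.25 (SD, n = 4, limma BH-adjusted p = 0.00431), and lay -0.020 from the median of its chromosome, XI. Its partner DOM34 (YNL001W) fell, at -0.43 ± 0.14 (SD, n = 4, limma BH-adjusted p = 0.0344), and RLI1 (YDR091C), the ATPase that splits ribosomes after termination, rose, at 0.58 ± 0.35 (SD, n = 4, limma BH-adjusted p = 0.0294). Neither DOM34 nor RLI1 was called without array 1, 3 or 4 (limma BH-adjusted p between 0.103 and 0.142).

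Mitochondria translate with their own elongation factors, encoded in the nucleus. MEF2 (YJL102W), which acts in recycling mitochondrial ribosomes, rose on every array, at 1.35, 1.22, 1.48 and 1.82, averaging 1.47 ± 0.26 (SD, n = 4, limma BH-adjusted p = 0.000784). TUF1 (YOR187W), the mitochondrial EF-Tu, fell, at -0.46 ± 0.18 (SD, n = 4, limma BH-adjusted p = 0.0302), but lost the call without array 1, 3 or 4 (limma BH-adjusted p between 0.0621 and 0.138). MEF1 (YLR069C), the translocase, at -0.39, and GUF1 (YLR289W), a GTPase related to bacterial LepA, at -0.69, were not called (limma BH-adjusted p = 0.0622 and 0.0676). The mitochondrial list thus held both the high MEF2 and 3 genes below 0.

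**Figure D4:**
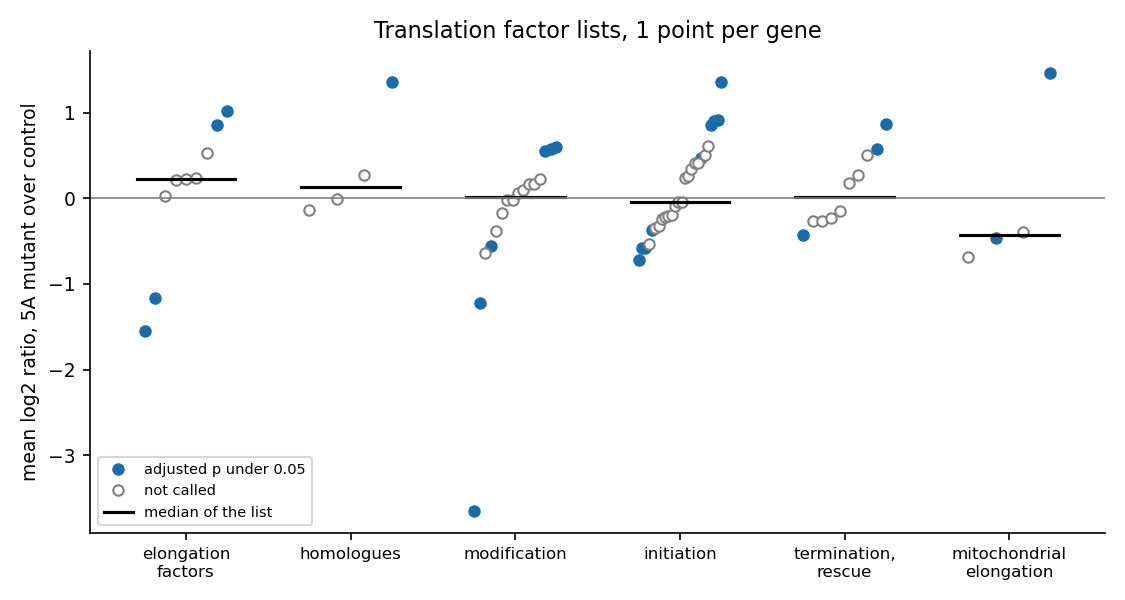
Mean log2 ratio of the 5A mutant over the control (y axis) for each gene of 6 translation lists (x axis), ordered by value within a list; filled points passed an adjusted p under 0.05 in limma, and bars mark list medians. The medians lie between -0.43 and 0.23, and LIA1, at -3.65, is the lowest point.

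Array 2 gave lower values than the other arrays for most of the elongation factor genes. All 7 genes with a mean above 0 had their lowest value on array 2, while YEF3 and HEF3 did not. The median of the 9 genes was 0.19, -0.16, 0.55 and 0.35 on arrays 1 to 4. Ribosomal protein genes, taken by symbol (RPL, RPS or RPP and a digit, a rule that also takes in RPP1 of ribonuclease P), had medians of 0.83, -0.081, 1.03 and 0.74, and 126 of their 133 probes with 4 values were lowest on array 2. Both groups were thus above the median of all probes on arrays 1, 3 and 4 and below it on array 2. Over the 4 arrays limma called 66 of 135 ribosomal protein probes higher and 3 lower, with a median of 0.60. Of all probes tested it called 19.8% higher and 20.7% lower. Without array 2 it called 118 of 133 ribosomal protein probes higher, against 1532 of 6087 over all probes. Among probes whose mean over arrays 1, 3 and 4 was at least 1 in size, the slope of array 2 on that mean was 0.669. The share of all probes that were lowest on array 2 was not counted, so the counts of 7 and 126 have no background here. What set array 2 apart was not tested.

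**Figure D5:**
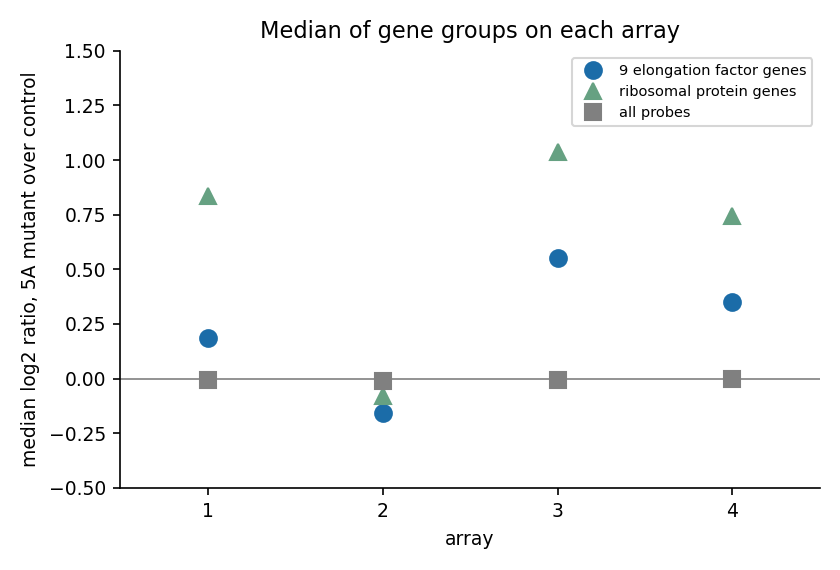
Median log2 ratio of the 5A mutant over the control (y axis) on each of the 4 arrays (x axis) for the 9 elongation factor genes, the ribosomal protein genes and all probes. The elongation factor genes lie between 0.19 and 0.55 on arrays 1, 3 and 4 and at -0.16 on array 2, below the ribosomal protein genes on every array.

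The surroundings of the genes did not show the same ratios. For each of the 9 genes, the median over the 10 flanking probes in gene order lay between -0.14 and 0.32. The flanking probes of YEF3 had a median of -0.026 and those of HEF3 one of 0.26, against the means of -1.16 and -1.55 for the genes themselves. For TEF1 the flanking median was 0.020, and for HYP2 it was 0.30. With each chromosome centred on its own median, the same 4 genes were called, at -1.13 for YEF3, -1.51 for HEF3, 1.07 for TEF1 and 0.92 for HYP2.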

How the data were processed

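The authors hybridized RNA of the 5A mutant (Cy5) and of control cells (Cy3) to 4 spotted oligonucleotide arrays, scanned them with a GenePix scanner and normalized the signals on the BASE server. They deposited 1 log2 ratio per probe and array. The normalization method, the background correction, and the base and direction of the ratio are not given in the sources used here. Base 2 and 5A over control were read from the dyes in the labels and from the numbers of probes with 4 values at or above 1 (325) and at or below -1 (493), the same numbers as the paper's up-regulated and down-regulated genes.

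Of 6210 probes, the 6157 measured on 2 or more arrays entered an intercept-only fit in limma 3.58.1 under R 4.3.3 (lmFit, eBayes, Benjamini-Hochberg). The fit was tested on simulated data. Related genes were compared by the exact sign-flip permutation test. Symbols came from a RefSeq gene table (assembly R64) that matched 5724 probes, and chromosomes were read from ORF names. The table served only for names and gene order, and the order was taken from its start coordinates. Named are the 9 genes, their homologues, the strain markers, up to 3 called genes of each other list, and the 3 probes nearest to YEF3. The called genes named had values on all 4 arrays and the largest means in size, in either direction. DYS1, TIF2, MEF1 and GUF1 are named outside this rule. The members and lists were chosen with earlier results of these data known. Alternatives were array, spread and chromosome centring, missing-value rules, limma's array weights and robust setting, a plain one-sample test per probe, medians, and leaving out each array. Sequences were not used here.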

Additional observations from a re-analysis of the deposited data

Results flagged for a closer look

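The 4 array values of 34 genes were examined, those named here other than MEF1 and GUF1. Of these, 2 had 1 array far from the other 3 by Dixon's criterion. Chance gives about 1 in 20, and 2 of 34 is near that rate. Both were eIF5A genes and in both the distant array was array 2. HYP2 was at 0.10 on array 2, against 1.05 to 1.21 on the other arrays, and ANB1 was at 0.062 there, against 0.34 to 0.36. The weight of array 2 in limma's array weighting was 0.36, the lowest of the 4.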

How the results depend on the processing

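YEF3 and HEF3 kept their direction and their call under every alternative except the plain one-sample test. That test called none of the 9 genes, 0 higher and 0 lower (3 had an unadjusted p under 0.05): YEF3 at -1.16 (adjusted p = 0.0554), HEF3 at -1.55 (adjusted p = 0.0797), TEF1 at 1.02 (adjusted p = 0.159) and HYP2 at 0.86 (adjusted p = 0.114). It called 14.8% of all probes. With 1 array left out, limma called between 2 and 6 of the 9, and between 0 and 4 higher (3, 2 and 2 higher at an unadjusted p under 0.05 without array 1, 3 and 4). The mean then ranged from 0.82 to 1.40 for TEF1, from 0.36 to 0.71 for TEF2, from 0.090 to 0.38 for EFT1, from 0.12 to 0.29 for EFB1, from 0.068 to 0.45 for EFT2, from 0.74 to 1.11 for HYP2 and from -0.023 to 0.13 for CAM1, that of EFT1 minus EFT2 from -0.081 to 0.14 and YEF3 minus HEF3 from 0.15 to 0.81. Array weights brought TEF2 to 0.64 and past the threshold (limma BH-adjusted p = 0.0105). The number of genes at 2-fold or more higher was 0 with the arrays at a common spread, 2 by medians over arrays, and between 0 and 2 with 1 array left out. Values near 0 changed sign: NEW1 was at 0.039 with chromosomes centred, 0.059 with array weights and between -0.13 and 0.13 with 1 array left out, and DYS1 between -0.43 and 0.095 with 1 left out. HBS1, a gene of chromosome XI called at 0.87, was at -0.019 and not called with chromosomes centred (limma BH-adjusted p = 0.929). The cause was not tested. No paired analysis was possible because each array already sets the 5A mutant against the control, and no second group of arrays shares its numbers. Background and saturation could not be examined, since intensities were not analysed here.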

Other observations

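Genes known to be induced by stress and slow growth did not rise as a group beside the elongation factor genes. Of 20 listed, limma called 2 higher and 5 lower, or 35% of them, against 40.5% of all probes, and their median was -0.40. Without array 2 it called 2 higher and 10 lower, or 60%, against 51.3% of all probes. GLK1, a glucokinase, was at -1.51 ± 0.81 and GPH1, which breaks down glycogen, at -0.87 ± 0.65, while HOR7 was at 0.83 ± 0.32 (SD, n = 4, limma BH-adjusted p = 0.00696, 0.0268 and 0.00679). GPH1 was not called without array 1, 3 or 4 (limma BH-adjusted p between 0.0782 and 0.0975). On array 2 GLK1 was at -0.34 and GPH1 at -0.053, nearest to 0 of the 4 arrays for both. The median of the 20 genes was -0.26, 0.086, -0.56 and -0.36 on arrays 1 to 4. On array 2 the values of the list ran from -1.18 to 1.72.

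The probes whose 4 values lay closest to those of YEF3, by Euclidean distance among 5865 probes outside the lists, were FMT1, which formylates the mitochondrial initiator tRNA, at a distance of 0.283, YLR463C at 0.303 and NKP1, a kinetochore protein gene, at 0.315. Their mean log2 ratios were -1.06, -1.13 and -1.26.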
